A study of Mus musculus with 2 samples.

Results

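Pf4 and Ppbp encode the main chemokines of blood platelets, and both were followed here across all cells of cultured mouse hematopoietic stem cells (HSC). The pair was chosen by name, with its lower level in the DFO-treated culture already known, so the difference between the cultures is given as a description and no test is made of it. Both genes are rows of the deposited tables, 2 of 14366 genes. HSC had been sorted from the marrow of 8 pooled wild-type C57/B6 mice aged 6 to 8 weeks as lineage-negative cells positive for c-Kit, Sca-1 and CD150 and negative for CD48. They were then cultured for 48 h with stem cell factor at 100 ng/ml and thrombopoietin, the cytokine that drives megakaryocyte formation, at 50 ng/ml. The vehicle group received sterile water and the DFO group 10 µM deferoxamine (DFO), an iron chelator, and both groups share the sort phenotype, the Myelocult medium, the cytokines and the culture time. The series asks how exposure to an iron chelator changes the transcripts of HSC. Each group is 1 library of single cells made with droplet-based 3′ end sequencing, so the differences below lack replicates and come without p-values.

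Platelets arise from megakaryocytes, which load alpha granules with chemokines, adhesion proteins and growth factors before they shed them. Pf4 encodes platelet factor 4 (CXCL4), a heparin-binding chemokine packed in alpha granules on the proteoglycan serglycin, and released Pf4 is known to restrain megakaryocyte growth and HSC division. Ppbp encodes pro-platelet basic protein, whose trimmed form CXCL7 attracts neutrophils through the receptor Cxcr2. Part of the HSC pool carries platelet-lineage transcripts, and such cells give rise to megakaryocytes readily.

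The vehicle library held 8708 cells and the DFO library 9852, with medians of 27805.5 and 27114 molecules per cell, and 24 cell barcodes occurred in both. Values are molecules, counted once each by their unique molecular identifier (UMI). Levels are given as CPM, the molecules of a gene scaled to a library total of 1000000. Of 18 marker genes of HSC 17 were in the tables, and their summed level was 1692 CPM in vehicle and 1815 CPM in DFO, with 2 genes below 1 CPM in each. The 13 megakaryocyte markers summed to 315.8 and 190.6 CPM, 11 erythroid markers to 884.7 and 858.2 CPM and 11 neutrophil-monocyte markers to 282.9 and 259.3 CPM. Below 1 CPM were 1 megakaryocyte marker in vehicle and 2 in DFO, and in each library 5 erythroid and 3 neutrophil-monocyte markers. To compare shares of cells, each cell was thinned at random to 10000 molecules, which left 8357 vehicle and 9419 DFO cells. Intervals are exact 95% intervals, Poisson for levels, Clopper-Pearson for shares and binomial for ratios of molecules. They cover counting error only, not variation between cells or cultures.

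Both genes lie side by side on the plus strand of mouse chromosome 5 (GENCODE M21, GRCm38, the same assembly as the mm10 named by the submitters). Ppbp spans 90768518 to 90770063 and Pf4 spans 90772435 to 90773383, with 2371 bp between them. The main transcript of each has 3 exons, with a coding length of 339 bases in Ppbp and 315 bases in Pf4. The windows from 250 bases before to 50 bases after each annotated start are shown because the pair sits in 1 locus and both genes had fewer molecules in the DFO library. They are RefSeq sequence on GRCm38.p6, plus strand, chr5:90772185-90772484 for Pf4 and chr5:90768268-90768567 for Ppbp. Capitals mark matches to the motifs searched, on either strand.
Pf4: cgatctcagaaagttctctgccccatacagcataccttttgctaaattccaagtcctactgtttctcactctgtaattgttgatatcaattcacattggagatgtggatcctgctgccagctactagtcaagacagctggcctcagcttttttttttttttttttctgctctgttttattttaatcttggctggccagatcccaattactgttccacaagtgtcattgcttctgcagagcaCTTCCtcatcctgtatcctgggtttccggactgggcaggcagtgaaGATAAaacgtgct
Ppbp: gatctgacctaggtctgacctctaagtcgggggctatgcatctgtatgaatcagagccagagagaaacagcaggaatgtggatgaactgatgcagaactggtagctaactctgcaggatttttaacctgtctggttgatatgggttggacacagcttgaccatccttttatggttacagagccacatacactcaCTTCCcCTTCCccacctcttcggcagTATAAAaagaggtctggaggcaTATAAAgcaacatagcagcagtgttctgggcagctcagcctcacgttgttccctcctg
The Pf4 window held GATAA, the core bound by GATA factors, 38 bases into the transcript, and GGAAG, the core bound by ETS factors, from base -9 on the minus strand. The Ppbp window held GGAAG at -56 and at -50 on the minus strand, and the TATA box TATAAA at -30 and -8. No motif match overlapped another. Of 32851 promoter windows of this length, 25.4% held GATAA, 71.4% GGAAG and 13.6% TATAAA. Neither window held TGACAG (MEIS factors, 19.2% of windows), TGTGGT (RUNX factors, 16.8%) or TGAGTCA (NF-E2 or AP-1 factors, 5.2%). These letters are a description of the windows and not sites of binding.

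Pf4 was an abundant transcript of both cultures and Ppbp a rare one. Pf4 had 377696 molecules in the vehicle library and 168384 in the DFO library, or 1447 CPM (1443 to 1452) and 592.2 CPM (589.4 to 595.1). It ranked 112 by level among all genes of the vehicle library and 230 in the DFO library, on counts of 3′ ends, which are not scaled by transcript length. Ppbp had 2495 and 1056 molecules, or 9.56 CPM (9.19 to 9.94) and 3.71 CPM (3.49 to 3.94). The vehicle library was therefore higher 2.44-fold for Pf4 (2.43 to 2.46) and 2.57-fold for Ppbp (2.39 to 2.77), and the intervals of these folds overlap.

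The ratio between the genes was close in the cultures. For each Ppbp molecule there were 151 Pf4 molecules (146 to 158) in the vehicle library and 159 (150 to 170) in the DFO library. On the scale used for all genes, the log2 ratio of DFO to vehicle with 1 CPM added to each level, Pf4 differed by -1.29 and Ppbp by -1.16. Of the 8959 genes that reached 5 CPM in either library, 9 (0.1%) were lower in DFO by 1 or more on that scale and 3 (0.0335%) were higher by 0.5 or more, and the median gene differed by 0.019. Pf4 had the second lowest difference among these genes and Ppbp the fourth lowest. Ppbp reached 5 CPM in the vehicle library only, so its entry depends on the difference that is ranked. At a floor of 10 CPM, which Ppbp does not reach, 7476 genes remained, of which 43 (0.575%) were lower by 0.5 or more, 1 (0.0134%) was higher by 0.5 or more and 41.3% were lower by any amount. Changes of 1 or more were seen in 6 of these genes (0.0803%), all lower in DFO, and Pf4 was again the second lowest. The pair was chosen with these ranks known, and nothing is read from them. The Ppbp value leans on the added constant, because its level is low: with 10 CPM added it was -0.51.

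Pf4 molecules were detected in most cells but concentrated in few. A Pf4 molecule was seen in 77.7% of thinned cells of the vehicle library (76.8% to 78.6%) and 62.9% in the DFO library (61.9% to 63.9%). At full depth it was seen in 91.4% and 81.9%. In the neutrophil-monocyte-like cluster described below, taken as the floor, the thinned shares were 58.6% and 44.4%. Detection in most cells is therefore not read as expression in most cells, and the floor too was lower in DFO. The median thinned cell held 2 Pf4 molecules in the vehicle library and 1 in the DFO library, the 90th percentile 35 and 12, and the highest cell 306 and 349. The low end and the upper quantiles were both lower in the DFO library, while its single highest cell was not.

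Cells with 50 or more Pf4 molecules made up 6.19% of the vehicle library (5.68% to 6.72%) and 1.58% of the DFO library (1.34% to 1.85%). These cells held 46.5% of all thinned Pf4 molecules in the vehicle library and 27.6% in the DFO library. Cells with 20 to 49 molecules made up 10.6% (9.96% to 11.3%) and 4.66% (4.24% to 5.11%), and those with 10 to 19 made up 10.1% (9.43% to 10.7%) and 6.15% (5.67% to 6.65%). At the other end, cells with no Pf4 molecule made up 22.3% (21.4% to 23.2%) and 37.1% (36.1% to 38.1%). Shares in the classes from 5 molecules upward were lower in the DFO library, and those with 0 or 1 molecule were higher. In the class of 2 to 4 molecules, with 20.9% and 20.2% of cells, the intervals overlapped.

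**Figure D1:**
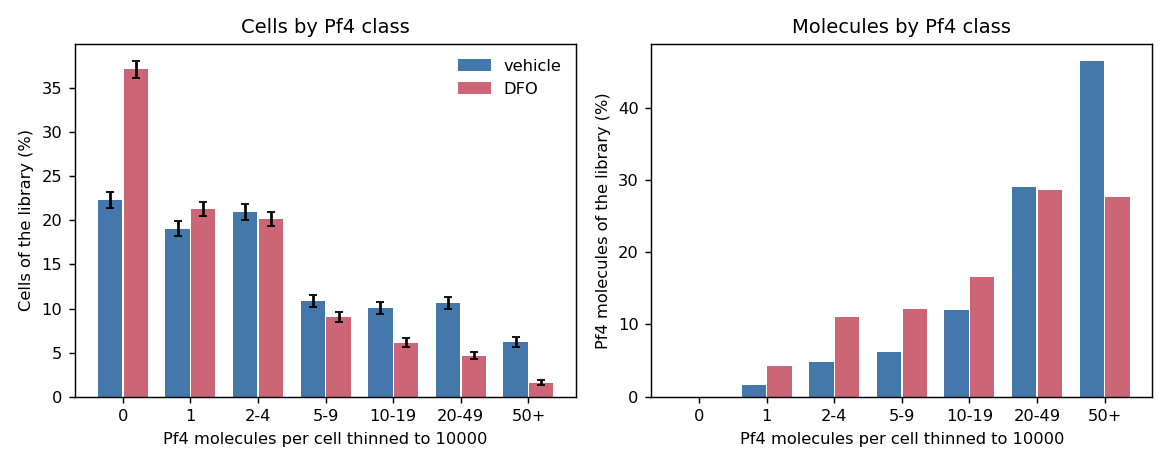
Left, share of cells (%) of each library in classes of Pf4 molecules per cell thinned to 10000 molecules, with exact 95% Clopper-Pearson intervals as error bars. Right, share (%) of the library's thinned Pf4 molecules held by each class. The class of 50 or more molecules holds 6.19% of vehicle and 1.58% of DFO cells, but 46.5% and 27.6% of the molecules.

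Ppbp was seen in far fewer cells. A Ppbp molecule was found in 4.75% of thinned cells of the vehicle library (4.3% to 5.23%) and 2.4% in the DFO library (2.1% to 2.73%), and in 10.6% and 5.47% at full depth. In the neutrophil-monocyte-like cluster described below, which should lack it, the thinned shares were 1.26% and 1.18%. Of the 397 vehicle cells with Ppbp after thinning, 297 held a single molecule, and of the 226 DFO cells 195 did. The highest thinned cell held 15 Ppbp molecules in the vehicle library and 10 in the DFO library. The top 1% of cells held 47.0% of the thinned Ppbp molecules in vehicle and 55.1% in DFO, against 13.1% and 20.9% for Pf4.

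Most cells with Ppbp also held Pf4, while most cells with Pf4 showed no Ppbp. After thinning, 375 vehicle cells held both transcripts, 6118 held Pf4 alone, 22 held Ppbp alone and 1842 held neither. In the DFO library 191 cells held both, 5733 Pf4 alone, 35 Ppbp alone and 3460 neither. Pf4 was thus present in 94.5% of the Ppbp-bearing cells in vehicle (91.7% to 96.5%) and 84.5% in DFO (79.1% to 89.0%), where 77.7% and 62.9% of all thinned cells held it. The share of cells with both was 4.49% (4.05% to 4.95%) and 2.03% (1.75% to 2.33%), where the product of the single shares would be 3.69% and 1.51%. Vehicle cells with Ppbp held a median of 28 Pf4 molecules against 2 in cells without it, and DFO cells 6 against 1.

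Ppbp detection climbed with the Pf4 content of a cell in both cultures, and at a given Pf4 content the DFO share was the lower one except with 20 to 49 molecules. Among cells with no Pf4 molecule, 1.18% in vehicle (0.741% to 1.78%) and 1.0% in DFO (0.698% to 1.39%) showed Ppbp. With 1 Pf4 molecule the shares were 1.76% and 1.35%, with 2 to 4 they were 2.75% and 2.16%, with 5 to 9 they were 4.19% (2.98% to 5.7%) and 2.59% (1.63% to 3.89%), and with 10 to 19 they were 4.52% and 4.32%. The widest ratio between the cultures was that at 5 to 9 molecules. With 20 to 49 Pf4 molecules the shares were 8.0% (6.3% to 9.99%) and 8.43% (6.0% to 11.4%). With 50 or more they were 29.4% (25.5% to 33.5%) and 26.2% (19.3% to 34.0%). The intervals of both libraries overlapped in all 7 Pf4 classes, and overlap does not show that the shares are equal. In the top class cells were also deeper before thinning, with medians of 38773 molecules in vehicle and 39838 in DFO, against 28479 and 27685 in cells with no Pf4. Their mitochondrial share was lower, at medians of 3.16% and 3.69% against 4.11% and 4.51%. The part of depth and mitochondrial share in the Ppbp values was not tested.

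**Figure D2:**
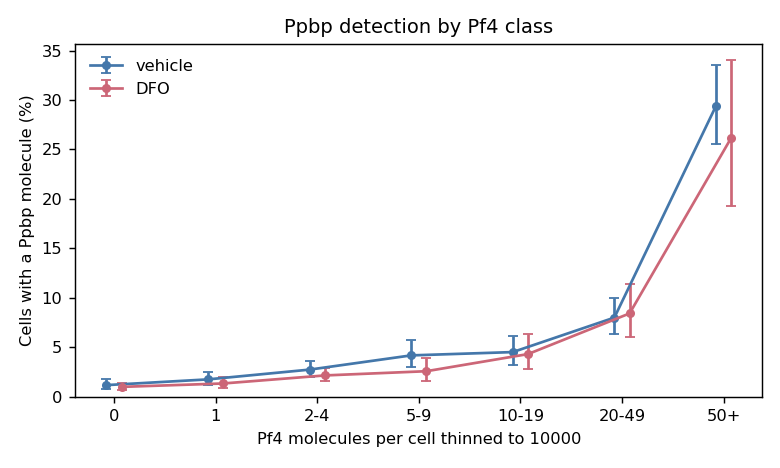
Share of thinned cells with a Ppbp molecule (%, y axis, from 0) in classes of Pf4 molecules per cell (x axis), for the vehicle and DFO libraries, with exact 95% Clopper-Pearson intervals. Both lines stay under 10% up to 20 to 49 Pf4 molecules and reach 29.4% and 26.2% in the class of 50 or more.

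Over single cells, the correlation of the pair was modest. Pearson's r of ln(1 + thinned molecules) was 0.27 over 8357 vehicle cells and 0.19 over 9419 DFO cells, and among cells holding both transcripts it was 0.39 over 375 cells and 0.42 over 191 cells. These are descriptions of cells that share a library, a thinned depth and its free RNA, and with so few Ppbp molecules per cell a low value is hard to read.

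To place the pair among cell states, all cells were clustered together without Pf4 and Ppbp among the genes used, which gave 9 clusters. Transcripts that travel with the pair were still among those genes, so the contrast between clusters is a description. Cluster 2 was megakaryocyte-like, with Cavin2, Serpine2 and Treml1 among its leading genes, which Tesc, Serpinb2, Pf4, Nlrp6, Ccdc180, Nt5e and Csrp3 completed. Cluster 3 was erythroid-like (Aqp1 and Klf1), cluster 4 neutrophil-monocyte-like (Mpo and Ctsg) and cluster 7 HSC-like (Sult1a1, Procr and Ly6a). In cluster 3, 5 detected erythroid markers had a mean log2 fold over other cells of 0.76, and 6 detected megakaryocyte markers 0.69. In cluster 7, 14 detected HSC markers had 1.19 and 4 detected neutrophil-monocyte markers 1.31, though the latter were not among its leading genes. The names therefore do not mark pure states. Of the unnamed clusters, cluster 0 was led by Il1rl1 and Nusap1, cluster 1 by mitosis genes such as Ube2c and Cenpf, cluster 5 by Mgarp, Egln3 and other genes of low oxygen, cluster 6 by Bex6 and Ung, and cluster 8, with a median of only 7016.5 molecules per cell, by Rpgrip1.

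Pf4 was highest in the megakaryocyte-like cluster, at 4204 CPM (4189 to 4219) in vehicle and 2259 CPM (2246 to 2271) in DFO. That cluster held 21.6% of vehicle cells and 79.3% of the vehicle Pf4 molecules, and 16.2% of DFO cells and 73.7% of the DFO molecules. Next came cluster 0 with 1141 and 565.1 CPM, the erythroid-like cluster with 976.1 and 407.2 CPM, cluster 8 with 881.5 and 318.5 CPM and cluster 5 with 406.9 and 231.1 CPM. The lowest levels were those of the HSC-like cluster at 192 CPM (186 to 198.1) and 115 CPM (110.5 to 119.6), cluster 6 at 163.8 CPM (159.3 to 168.5) and 112.4 CPM (109.2 to 115.8), cluster 1 at 151 and 100.3 CPM, and the neutrophil-monocyte-like one at 131.8 (126.8 to 137) and 82.5 (79.0 to 86.1). The order of the clusters was the same in both libraries, and only the HSC-like cluster and cluster 6 of the DFO library had overlapping intervals as neighbours.

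Pf4 was lower in DFO in each of the 9 clusters. The vehicle level was higher 1.86-fold (1.85 to 1.87) in the megakaryocyte-like cluster, 2.4-fold (2.33 to 2.47) in the erythroid-like cluster, 1.67-fold (1.59 to 1.76) in the HSC-like cluster and 1.6-fold (1.51 to 1.69) in the neutrophil-monocyte-like cluster. The smallest fold was that of cluster 6, at 1.46 (1.4 to 1.52), and the largest that of the shallow cluster 8, at 2.77 (2.61 to 2.94). The neutrophil-monocyte-like cluster, taken as the floor below, itself had 131.8 CPM in vehicle and 82.5 CPM in DFO. Cluster 1 (151 and 100.3 CPM) and cluster 6 (163.8 and 112.4 CPM) lay near that floor. Their folds are therefore not read as a difference in expression. With both libraries weighted to the same cluster shares, the difference over all cells was -0.96 for Pf4 and -0.93 for Ppbp on the log2 scale.

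Platelet chemokines are not defining transcripts of neutrophil and monocyte precursors, so the neutrophil-monocyte-like cluster was taken as the floor for these libraries. There, 58.6% of thinned cells in vehicle (54.6% to 62.5%) and 44.4% in DFO (41.0% to 47.8%) showed Pf4, at median depths of 30210 and 28715 molecules before thinning. In the HSC-like cluster the shares were 63.8% (60.5% to 67.0%) and 46.3% (43.1% to 49.6%), at 21988.5 and 21575.5 molecules, so their intervals overlap that floor and the shares are not read as expression, although the levels in CPM above were higher than in the floor cluster. The megakaryocyte-like cluster stood above it with 98.0% (97.2% to 98.6%) and 91.0% (89.5% to 92.4%). With the neutrophil-monocyte-like level taken off, 1316 and 509.7 CPM of Pf4 and 7.93 and 2.27 CPM of Ppbp remained, and the log2 differences were -1.37 and -1.45. How much of the low-level Pf4 is free RNA was not tested.

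Ppbp reached 27.3 CPM (26.1 to 28.5) in the megakaryocyte-like cluster of the vehicle library and 12.7 CPM (11.8 to 13.7) in that of the DFO library, a 2.15-fold difference (1.97 to 2.35). This cluster held 77.8% of the vehicle and 66.1% of the DFO molecules of Ppbp. Outside it, levels ran in vehicle from 1.64 CPM (1.12 to 2.31) for neutrophil-monocyte-like cells to 9.31 CPM (6.65 to 12.7) for cluster 8, which rests on 40 molecules, and from 0.947 to 3.11 CPM in DFO. The intervals of the libraries overlapped in the neutrophil-monocyte-like, HSC-like and erythroid-like clusters and in cluster 0, so no difference in Ppbp was detectable there at this depth.

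The ratio of the pair was not the same in every state. There were 154 Pf4 molecules per Ppbp molecule (147 to 161) in the megakaryocyte-like cluster of the vehicle library and 178 (165 to 192) in that of the DFO library. The erythroid-like cluster had the highest vehicle ratio, 356 (263 to 494), with 240 (166 to 361) in DFO, and cluster 0 had 267 (220 to 326) and 182 (142 to 237). The HSC-like cluster had 69.4 (53.4 to 91.7) and 56.6 (42.1 to 78.1), and the neutrophil-monocyte-like cluster 80.6 (56.9 to 118) and 57.0 (41.2 to 81.2). The intervals of the erythroid-like cluster and cluster 0 overlapped each other in both libraries, and both lay above that of the megakaryocyte-like cluster in vehicle but not in DFO.

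**Figure D3:**
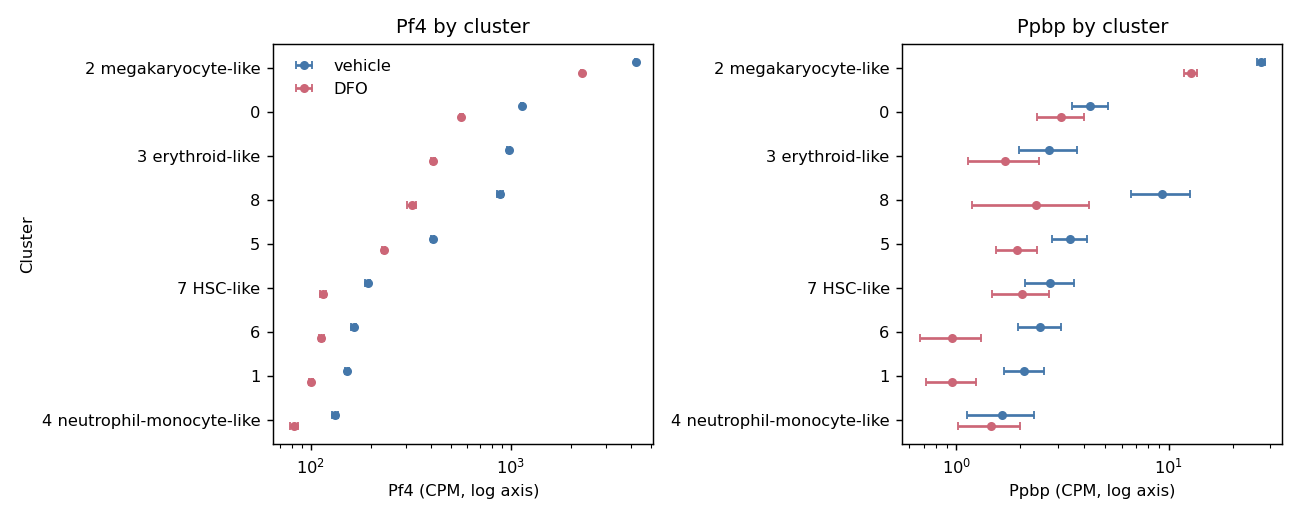
Level of Pf4 (left) and Ppbp (right) in CPM on log axes, in each of the 9 clusters (y axis, ordered by the vehicle Pf4 level) of the vehicle and DFO libraries, with exact 95% Poisson intervals as bars. Pf4 lies lower in DFO in every cluster, including the neutrophil-monocyte-like one taken as the floor. It peaks in the megakaryocyte-like one, at 4204 and 2259 CPM.

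A finer scale came from counting, in each thinned cell, how many of 13 megakaryocyte markers other than the pair were detected (Itga2b, Gp1bb, Gp9, Gp5, Clec1b, Treml1, Cavin2, Mpig6b, F2rl2, Rab27b, Serpine2, Timp3 and Mrvi1). This count is a range and not a cell type, and most cells sit at 0 or 1. In the vehicle library 4.58% of cells (4.14% to 5.05%) held 6 or more markers and in the DFO library 1.7% (1.45% to 1.98%), while 31.2% (30.2% to 32.2%) and 39.3% (38.4% to 40.3%) held none. Pf4 climbed with each added marker, from 177.5 CPM in vehicle and 119.2 CPM in DFO with none to 7726 and 6804 CPM with 6 or more. Ppbp went from 2.0 and 1.37 CPM to 63.4 and 55.3 CPM over the same range, with 1 step down in DFO at 5 markers, where there were 49 molecules.

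At an equal number of markers Pf4 differed less between the cultures than over all cells, and so did Ppbp except at 5 markers, where its fold was 2.97 (2.19 to 4.11). The vehicle level of Pf4 was higher 1.49-fold (1.45 to 1.52) with no marker, 1.9-fold (1.87 to 1.93) with 2, 1.44-fold (1.42 to 1.46) with 4 and 1.14-fold (1.12 to 1.15) with 6 or more. For Ppbp the folds were 1.46 (1.16 to 1.84), 2.06 (1.61 to 2.66), 1.33 (1.08 to 1.63) and 1.15 (1.02 to 1.29). With thinned cells of both libraries weighted to the same share of each marker count, the log2 difference was -0.59 for Pf4 and -0.55 for Ppbp, against -1.24 and -1.03 for thinned cells as they came. The marker genes were themselves lower in DFO, from -1.47 for Treml1 to -0.15 for Mpig6b, so the weighting uses genes that differ between the groups.

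**Figure D4:**
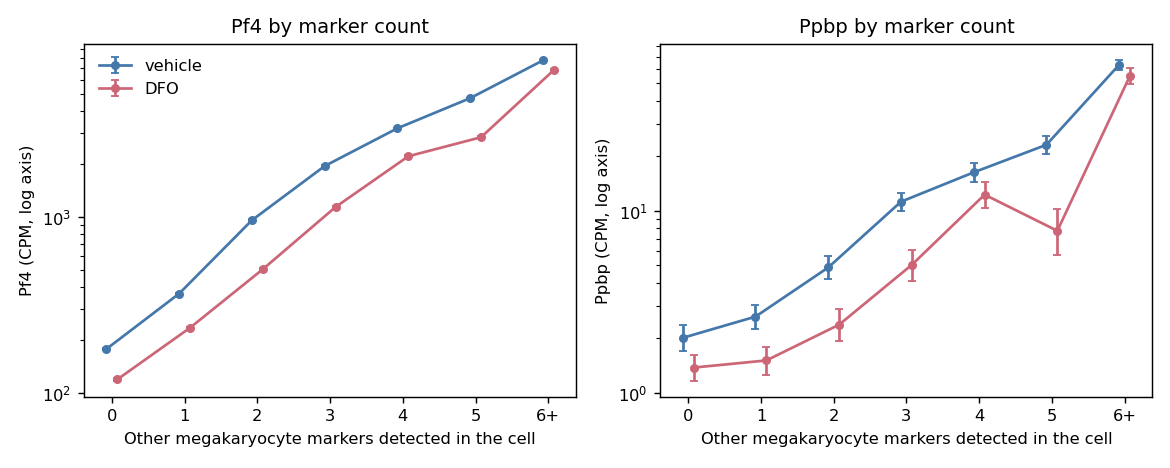
Level of Pf4 (left) and Ppbp (right) in CPM on log axes against the number of other megakaryocyte markers detected in the cell, for the vehicle and DFO libraries, with exact 95% Poisson intervals. Levels climb with the count, except for Ppbp in DFO from 4 to 5 markers, and the gap between the libraries is smallest at 6 or more markers, 7726 against 6804 CPM for Pf4.

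The make-up of Pf4-rich cells was followed through genes fixed by name. Itga2b, the platelet integrin subunit CD41, was seen in 27.2% of vehicle cells with no Pf4 molecule, 42.5% with 1 to 9, 82.5% with 10 to 49 and 95.2% with 50 or more. The DFO shares were 25.8%, 42.4%, 81.4% and 92.6%. Procr, a surface marker of HSC, went the other way: it was seen in 8.05% of vehicle and 7.55% of DFO cells with no Pf4, and in 0 of 517 vehicle and 0 of 149 DFO cells with 50 or more, where a limit of 3 counts, in place of the exact interval, allows shares of up to 0.58% and 2.01%. That limit is on cells with a Procr molecule after thinning, not on cells that express the gene, which was sparse even where it was seen. Mpo, the granule peroxidase of neutrophils, was seen in 2.74% and 2.17% of cells without Pf4 and in 0 of the 517 and 0.671% of the 149 cells at the top. Gata1, the transcription factor of megakaryocytes and red cells, was seen in 2.63%, 10.5%, 37.8% and 42.9% of vehicle cells over the classes given for Itga2b. In DFO the Gata1 shares were 3.26%, 10.4%, 33.5% and 28.2%, so the top class of 149 cells lay below the class before it.

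Vwf, the adhesion protein that marks platelet-primed HSC, overlapped with Pf4 mainly in the megakaryocyte direction. Over all thinned vehicle cells, the 353 with Vwf held a mean of 43.9 Pf4 molecules (43.2 to 44.6) against 10.3 (10.2 to 10.3) in the others, and in DFO the 271 with Vwf held 25.1 (24.5 to 25.7) against 4.34 (4.3 to 4.38). Within the HSC-like cluster this was not seen for Vwf, in few cells: 26 vehicle cells with Vwf held a mean of 1.62 (1.16 to 2.18) against 2.21 (2.12 to 2.32), and 38 DFO cells 1.13 (0.819 to 1.52) against 1.3 (1.23 to 1.38). Mean Pf4 was higher there with Itga2b: 173 vehicle cells with Itga2b held a mean of 4.12 Pf4 molecules (3.82 to 4.43) against 1.72 (1.63 to 1.82) without it, and 155 DFO cells 2.06 (1.84 to 2.3) against 1.14 (1.07 to 1.22). Shares of cells with Pf4 were 76.3% (69.3% to 82.4%) against 60.7% (57.0% to 64.4%) in vehicle. In DFO they were 53.5% (45.4% to 61.6%) against 44.9% (41.4% to 48.5%), and these intervals overlap. The intervals of the means leave out the spread between cells, so a few Pf4-rich cells could set a mean.

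Partners were ranked by Pearson's r of ln(1 + thinned molecules) over the cells of a library, among genes seen in 5% or more of them (8810 genes in vehicle and 8823 in DFO for Pf4). Among the 10 genes most like Pf4 in vehicle were Tmsb4x (r = 0.65), which encodes the actin-binding thymosin beta 4, Rap1b (0.57), the small GTPase behind platelet integrin activation, Itga2b (0.57), Mt1 (0.56), a metallothionein, Rabgap1l (0.50), Pdcd4 (0.49), Gp5 (0.49), a subunit of the platelet receptor for Vwf, Lat (0.48), an adaptor of collagen receptor signalling, and Prkar2b (0.48). For comparison, the 99th percentile over all ranked genes was 0.26 in vehicle and 0.19 in DFO. In DFO 9 of these 10 were again among the 10 highest, with Tmsb4x (0.57) first and Itga2b at 0.48, and Plek (0.37) took the place of Lat (0.35). The most unlike genes were H2afy (-0.60 and -0.48), a variant histone, Vim (-0.49 and -0.40) and S100a4 (-0.48 and -0.41) in both libraries.

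For Ppbp the closest gene at that floor of 5% was Pf4 in both libraries, followed by Tmsb4x (0.27 in vehicle and 0.18 in DFO) and Tesc (0.23 and 0.15). The floor leaves out genes as sparse as Ppbp itself, such as Clec1b, whose r of 0.156 in vehicle and 0.180 in DFO passed Tmsb4x (0.176) in DFO. With a floor of 10% of cells, the top 10 kept 6 of these names in vehicle and 7 in DFO. At the floor of 5%, vehicle partners also included Plek (0.19), the pleckstrin of platelet signalling, and Treml1 (0.19), an alpha granule receptor. They were followed by Cavin2 (0.18), Timp3 (0.18) and Serpine2 (0.18), which the floor of 10% leaves out. DFO partners at the floor of 5% included Plek (0.14), Rap1b (0.13), Ehd3 (0.11) and Itgb3 (0.11). The lowest were H2afy (-0.16 and -0.08), Cmtm7 (-0.16 and -0.08) and Stmn1 (-0.15 and -0.09). The vehicle and DFO lists of 10 had 5 names in common. The 10 partners of Pf4 and of Ppbp shared 3 names in vehicle (Mt1, Rap1b and Tmsb4x) and 5 in DFO, among them Plek, Rabgap1l, Rap1b and Tmsb4x.

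**Figure D5:**
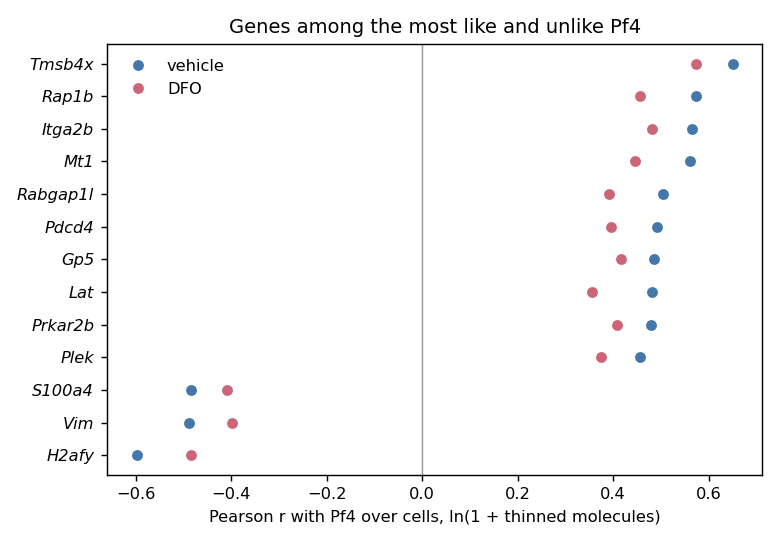
Pearson's r with Pf4 over thinned cells (x axis) for genes among the 10 highest and 3 lowest values in either library (y axis), in the vehicle and DFO libraries. Values run from 0.65 for Tmsb4x to -0.60 for H2afy in vehicle, and each lies nearer 0 in DFO.

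Genes of the platelet release system were then read from fixed lists, over members reaching 5 CPM in either library. Over all 8959 genes at that level, 0.703% were lower in DFO by 0.5 or more on the log2 scale and 42.1% were lower by any amount. Of the alpha granule cargo genes 11 of 22 entered, 9 were lower and 3 were lower by 0.5 or more, with a median of -0.41. The lowest were Timp3 (-0.88), an inhibitor of matrix proteases, Clu (-0.73), the chaperone clusterin, Vwf (-0.60) and Apoe (-0.48), and the highest were Vegfc (0.19) and Spp1 (0.02). Spp1 took both signs under other settings. Vwf reached 5 CPM in vehicle only (6.84 and 4.17 CPM) and Vegfc in DFO only (4.32 and 5.09 CPM). Each thus entered through the library where it was higher. Thbs1, the granule protein thrombospondin 1, was below that level, at 2.49 and 1.7 CPM.

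The machinery that packs and releases granules differed less. Of 20 genes 19 entered, 16 were lower but none by 0.5 or more, and the median was -0.10. Stx11 (-0.47), Rab27b (-0.43), Vps33b (-0.31) and Selp (-0.28) were lowest, of which Vps33b and Rab27b serve granule biogenesis and Selp encodes P-selectin. Stx11 entered through the vehicle library only, at 6.23 CPM against 4.22 CPM in DFO. Nbeal2, needed to form alpha granules, was among the highest (0.04), with Vamp7 (0.05). Srgn, the serglycin core protein that holds Pf4 in granules, was seen in 99.9% of thinned cells of both libraries, at 903.4 and 816.7 CPM (-0.15), and its r with Pf4 was -0.06 and -0.03. So by r it did not follow Pf4 from cell to cell. Its mean in thinned cells with no Pf4 was 900.4 CPM in vehicle and 826.0 CPM in DFO. With 1 to 9 Pf4 molecules it was 989.1 and 875.8 CPM, and with 10 to 49 it was 972.2 and 842.3 CPM. Cells with 50 or more had the lowest means, 734.2 and 597.3 CPM.

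Surface receptors of megakaryocytes were lower as a list. Of 22 genes 15 entered, all 15 were lower and 6 by 0.5 or more, with a median of -0.44. Treml1 (-1.47), Gp9 (-0.84), Gp5 (-0.76) and F2rl2 (-0.57) were lowest, and Itga2b differed by -0.57 from 118.8 to 79.6 CPM. F2rl3, a thrombin receptor, was among those closest to 0, at -0.06. Of 21 cytoskeleton and signalling genes 17 entered, 16 were lower and 3 by 0.5 or more, with a median of -0.21, from Tesc (-0.97), Cavin2 (-0.75), Plek (-0.54) and Tbxas1 (-0.38) to Ppif (-0.05) and Flna (0.19). Ppif too took both signs.

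Transcription factors known to act in megakaryocytes were split. Of 23 genes 21 entered, 15 were lower, 2 by 0.5 or more, and the median was -0.10. Gata1 differed by -0.65 from 24 to 14.9 CPM, Zfpm1, the Gata1 cofactor FOG1, by -0.45 and Gfi1b by -0.26. Fli1 (-0.22), Nfe2 (-0.15), Runx1 (-0.15), Gata2 (-0.10) and Meis1 (-0.04) lay closer to 0, and Gata2 took both signs under other settings. Ldb1 (0.26) and Srf (0.19) were highest. Over cells, r with Pf4 was 0.39 in vehicle and 0.32 in DFO for Gata1, 0.44 and 0.33 for Zfpm1, 0.26 and 0.20 for Fli1 and 0.04 and 0.03 for Nfe2.

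Most other chemokines and the receptors of the pair were scarce in these cultures. Of 26 other chemokines 2 reached 5 CPM, Ccl9 at 29.5 and 26.8 CPM (-0.13) and Ccl25 at 14.5 and 14.8 CPM (0.03). Both lay above the level of Ppbp in each library. Within 150 kb of Pf4, the neighbours Cxcl5 and Cxcl3 had 92 and 103 molecules in vehicle and 33 and 76 in DFO. The receptor Cxcr2 had 112 and 99 molecules and Cxcr3 39 and 37, all under 1 CPM, and Ccr1 had 171 and 101. Of 18 chemokine receptors only Cxcr4, which holds HSC in marrow by its ligand Cxcl12, reached 5 CPM, at 15.7 and 16.4 CPM (0.06). Itgav, an integrin subunit, differed by 0.04 and took both signs under other settings. Ctsg, the cathepsin that trims the Ppbp product to its active form, lay at 6.67 and 5.08 CPM (-0.34), Prtn3, another neutrophil protease, differed by -0.11, and Mpo lay at 5.26 and 4.59 CPM (-0.16).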

How the data were processed

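The authors deposited natural log values of 14366 genes in every cell, as 1 table per library. Per the submitters' processing notes, Cell Ranger 3.0.2, FastQC 0.11.9, Trim Galore 0.6.5 and the build mm10 were used. How cells were filtered, and by which tool values were normalized, is not stated there. Back-transformed, each cell's values were whole multiples of 1 step (all 44114455 vehicle and 49560434 DFO values within 0.05), so a deposited value is ln(1 + 27408 × m / t), with m the gene's molecules and t the cell's total. All cells were used, 260938938 molecules in vehicle and 284326017 in DFO. The members and gene lists were chosen with earlier results of these data known.

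Molecules were summed per library and scaled to CPM in Python 3.11.15 with numpy 2.4.6 and scipy 1.17.1. With 1 library per group no test was run, and depth limits only the counting error. Thinning left out 351 vehicle and 433 DFO cells. Clustering used scanpy 1.11.5 on 2000 variable genes without the pair and without cell cycle, mitochondrially encoded and ribosomal protein genes, 30 principal components, 15 neighbours and Leiden resolution 0.5. Clusters were named from fixed markers when at least 3 were detected, their mean log2 fold was positive and 1 or more stood among the 10 leading genes. Of the types that met this, the same one had to lead alone by that count and also have the highest mean fold. Scrublet called 3 vehicle and 2 DFO cells doublets, so its threshold did not work here, and doublets were left in. The alternative leaves out cells with molecules of both sexes or in the top 8% of scores, 820 and 925 cells. The text names the 10 highest and 3 lowest partners, the 4 lowest and 2 highest members of each list, genes fixed by name and leading genes of clusters. Other genes in the text (Clec1b as a partner, Cxcl3, Mpig6b, Lat in DFO) were chosen after their values were seen. A few genes that this rule would name are not reported here. Scripts were tested on simulated data.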

Additional observations from a re-analysis of the deposited data

How the results depend on the processing

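Both differences kept their negative sign under the other settings tried. For Pf4 the log2 difference was -1.24 as the mean over cells of each cell's CPM, -1.24 with cells thinned, -1.30 with trimmed mean scaling, -1.28 with 10 CPM added, -0.96 with equal cluster shares, -1.37 with the neutrophil-monocyte-like level subtracted and -0.59 with equal shares of the marker counts. For Ppbp it was -1.01 as the mean over cells, -1.03 thinned, -1.34 with 0.1 CPM added, -0.51 with 10 CPM added, -0.93 with equal cluster shares, -1.45 after the subtraction and -0.55 with equal marker counts. The cause of these shifts was not tested, beyond the construction of the added constants. The subtraction, the weighting by marker counts, and leaving out shared barcodes or cluster 8 were chosen after seeing the data. Keeping cells with 1000 or more genes and at most 10% mitochondrial molecules, and removal of likely doublets, of shared barcodes and of cluster 8 moved neither gene by more than its counting error.

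The share of cells with Pf4 differed by -14.8 percentage points (DFO minus vehicle), by -9.52 without thinning and by -17.0 for 3 molecules or more. The floor cluster differed as well, with thinned shares of 58.6% in vehicle and 44.4% in DFO. For Ppbp the share over all cells differed by -2.35 points, by -5.12 without thinning, by -1.38 at 5000 molecules and by -0.471 for 3 or more. The correlation of the pair was 0.21 by Spearman and 0.34 without thinning in vehicle, and 0.13 and 0.27 in DFO. No paired analysis was possible because each group is 1 library. Ppbp rests on few molecules per cluster, which limits what can be seen outside the megakaryocyte-like one.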

Other observations

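Cells were split by sex from Xist and Y-linked transcripts. Pf4 lay at 1505 CPM in female vehicle cells and 604.4 CPM in female DFO cells, a 2.49-fold difference (2.47 to 2.51), and at 1375 and 591.6 CPM in male cells, a 2.32-fold difference (2.3 to 2.35). For Ppbp the levels were 10.2 and 4.12 CPM in female cells (2.48-fold, 2.25 to 2.73) and 9.46 and 3.28 CPM in male cells (2.88-fold, 2.53 to 3.3). Both genes were lower in DFO in cells of either sex.

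Cells with the most molecules carried the most of both transcripts in CPM. In the highest quartile of molecules per cell Pf4 reached 2214 CPM (vehicle) and 927.9 CPM (DFO), against 837.2 and 431.9 CPM in the lowest quartile. Ppbp lay at 15.7 and 6.29 CPM against 4.81 and 2.47 CPM. The highest quartile held 64.2% of vehicle and 58.2% of DFO Pf4 molecules.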
